A study of Arabidopsis thaliana with 12 samples.

Results

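Ribosomes are assembled in the nucleolus, where the precursor of ribosomal RNA (pre-rRNA) is transcribed, modified, cut and folded with ribosomal proteins. The transcripts of 10 *Arabidopsis thaliana* genes for such nucleolar factors were followed here, chosen by gene ID: the nucleolins *NUC1* and *NUC2*, the fibrillarins *FIB1* and *FIB2*, *NOP56*, *NOP58-1* and *NOP58-2*, *CBF5*, and the Pumilio proteins *APUM23* and *APUM24*. All 10 were found among the 23784 genes of the count table. Fibrillarin, NOP56 and NOP58 are the core proteins of box C/D small nucleolar RNA particles, in which fibrillarin methylates the ribose of rRNA. CBF5 is the pseudouridine synthase of box H/ACA particles. Nucleolin acts at rRNA genes and in the first cuts of pre-rRNA, and APUM23 and APUM24 are needed for pre-rRNA processing and for removal of its by-products. Demand for these factors is known to be high in growing and dividing cells.

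RNA-seq was made from the aerial parts of 2-week-old seedlings grown in long days, and each replicate was a pool of seedlings. There were 4 genotypes with 3 independent replicates each. WT was Columbia-0. *epn* carried *eds1-c1*, *pad4-c1* and *ndr1-c1*, which remove components of immune signalling downstream of intracellular immune receptors. *quintuple* was *cbp60b;c;d;e;f*, with mutations in a clade of calmodulin-binding transcription regulators and with autoimmunity, and *octuple* was mutated in all 8 genes. The study reports that *octuple* kept part of this immune activation and was arrested in development. The study has more than 1 line of the quintuple mutant, and the line sequenced in either genotype is not given in the sources used here. The study's supplement describes *quintuple* plants as dying at about the age sampled, so their differences from the other genotypes include any change of dying seedlings, and the part of this in the results was not tested.

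Between 38698646 and 44294404 fragments were counted on genes per library, and a count of 0 allows a level of up to 3 counts, or 0.0677 to 0.0775 CPM (counts scaled to library size with TMM factors). The mutated genes were read at the level of whole genes, which does not test the alleles. *PAD4* was at 1.14 to 1.44 CPM in *epn* and 3.00 to 3.54 CPM in *octuple*, against 4.66 to 9.98 CPM in WT. *EDS1* was likewise below WT in both. *NDR1* was at 2.48 to 6.14 CPM in *epn* and overlapped WT (5.50 to 7.97 CPM), while in *octuple* it was below WT, at 3.42 to 4.99 CPM. Of the *CBP60* genes, only *CBP60c* was below WT in every library of both *quintuple* and *octuple*. *CBP60b* was at 154 to 249 CPM in *quintuple* and 42.9 to 56.1 CPM in *octuple* against 41.7 to 44.1 CPM in WT, and *CBP60f* was above WT in both, at 24.3 to 55.3 CPM in *octuple* against 6.43 to 13.0 CPM in WT. The gene-level values thus did not follow the labels alike. The immune markers *PR1*, *PR2* and *PR5* summed to 15.6 to 118 CPM in WT and 10 to 22.9 in *epn*. Their sum was 7302 to 12710 CPM in *quintuple* and 952 to 1241 in *octuple*. With edgeR, 2 of these 3 were higher in *octuple*-vs-WT, against 1.99% of all genes, and their part in the results was not tested. Leaf photosynthesis markers summed to 63050 to 105000 CPM in WT and 5828 to 30910 CPM in *quintuple*. The sum was 64360 to 103800 CPM in *epn* and 55560 to 100200 CPM in *octuple*, with replicate 3 lowest in each genotype. With edgeR, 4 of the 10 leaf markers were lower in *quintuple*-vs-WT, against 27.7% of all genes. Of 9 root markers, 8 were in the count table. *RHS12*, *CASP2*, *EXPA7* and *EXPA18* were at 0 in 10 or 11 of the 12 libraries. At low levels, *MYB36* had a mean of 0.357 CPM in *quintuple* against 0.0834 in WT, and *PHT1;1* 1.15 against 0.0912. *CASP1* had 0.00644 against 0.176 CPM. *PYK10*, a beta-glucosidase gene, took nearly all of the list's sum. This sum was 129 to 159 CPM in WT, 169 to 223 in *epn*, 1433 to 2247 in *quintuple* and 334 to 762 in *octuple*. In *octuple*-vs-WT, 2 of the 2 root markers tested with edgeR were higher, against 1.99% of all genes. *PYK10* was higher in *quintuple*-vs-WT (log2 fold change 3.64, edgeR adjusted p = 0.000361), and its part in the results was not tested. Replicate 3 stood apart from the others: counts of replicates 1 and 2 of a genotype differed with a chi-square of 29.9 to 53.3 per degree of freedom, and those of replicate 3 from either with 300 to 365.

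The DNA around the gene starts was searched first for letter strings that plant genes of the translation machinery are known to carry. The genes and the strings were chosen with earlier results of these data known, so the counts are a description. The telo box, searched as AAACCCTA on both strands from 250 bases before to 50 bases after the start in the RefSeq annotation (build TAIR10.1), was found in 8 of the 10 genes, in 21 of 63 other ribosome biogenesis factors (33.3%) and in 6.22% of 27438 promoters. The site II element, searched as TGGGCC or TGGGCT on both strands, was found in 7 of the 10 genes, in 37 of the 63 other factors (58.7%) and in 21.7% of promoters. Both were found in 6 of the 10 genes, in 13 of the 63 other factors (20.6%) and in 2.20% of promoters. The letters of the motifs do not overlap each other in the 10 genes. The 30 bases around the telo box nearest to the start are shown for the 8 genes that hold one, to let the flanks be compared, with the telo box in capitals, 5′ to 3′ on the strand of the gene:
FIB1: taccaaagcatAAACCCTAaaagccctaaa
FIB2: aaaccctgttaAAACCCTAgcttgaaacac
NOP56: ttaaacccctgAAACCCTAgtttcgttcgt
NOP58-1: gatgcgttttaAAACCCTAggttacaaaaa
NOP58-2: tcttaaaacctAAACCCTAactatggaagt
CBF5: actgtcgcctaAAACCCTAaaaaaccctag
NUC1: tacatgttctaAAACCCTAagctgaaaaat
NUC2: gaaaaaagcaaAAACCCTAcacgcgaaaac
These lie at chr5:21294139-21294168 on the plus strand for *FIB1*, chr4:13074103-13074132 on the plus strand for *FIB2*, chr1:20986951-20986980 on the minus strand for *NOP56*, chr5:9540806-9540835 on the plus strand for *NOP58-1*, chr3:1416038-1416067 on the minus strand for *NOP58-2*, chr3:21156049-21156078 on the minus strand for *CBF5*, chr1:18098071-18098100 on the plus strand for *NUC1* and chr3:6407886-6407915 on the minus strand for *NUC2*. In these 8 windows the box in capitals read in the direction of the gene. It began 44 bases upstream of the start in *NOP58-1* and 17 bases upstream in *NOP56*, and at base 1 to base 43 of the annotated transcript in the other 6. The *CBF5* window also holds a second telo box, at base 19, which is left in lower case. *NUC1* and *NOP56* also held a telo box on the opposite strand, at base 38 and base 32. *APUM23* and *APUM24* held no telo box in the window, and *APUM24* held neither motif.

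The 250 bases upstream of the start are shown for *NOP56*, *NOP58-1* and *FIB1*, which hold both motifs there, and for *NUC2*, which holds neither there, with telo boxes and site II elements in capitals:
NOP56: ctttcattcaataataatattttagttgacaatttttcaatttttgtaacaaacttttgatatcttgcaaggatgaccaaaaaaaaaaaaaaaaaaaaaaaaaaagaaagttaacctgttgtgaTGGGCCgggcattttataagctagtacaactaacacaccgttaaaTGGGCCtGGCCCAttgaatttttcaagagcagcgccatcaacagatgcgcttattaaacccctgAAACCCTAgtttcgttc
NOP58-1: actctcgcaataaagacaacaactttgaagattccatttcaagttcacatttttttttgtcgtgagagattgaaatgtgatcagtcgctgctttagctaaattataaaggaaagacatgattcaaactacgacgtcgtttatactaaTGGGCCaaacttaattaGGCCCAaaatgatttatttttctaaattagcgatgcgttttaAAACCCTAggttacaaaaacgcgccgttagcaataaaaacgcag
FIB1: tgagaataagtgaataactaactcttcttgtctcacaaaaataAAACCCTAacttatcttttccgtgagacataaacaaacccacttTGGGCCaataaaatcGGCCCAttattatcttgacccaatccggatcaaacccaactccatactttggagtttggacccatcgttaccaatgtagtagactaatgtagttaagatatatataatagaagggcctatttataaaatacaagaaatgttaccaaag
NUC2: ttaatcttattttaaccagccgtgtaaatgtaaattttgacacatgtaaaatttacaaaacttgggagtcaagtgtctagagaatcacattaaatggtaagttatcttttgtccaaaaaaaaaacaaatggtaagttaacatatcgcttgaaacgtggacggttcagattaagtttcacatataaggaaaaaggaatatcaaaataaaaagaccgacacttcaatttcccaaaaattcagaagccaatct
These lie at chr1:20986953-20987202 on the minus strand for *NOP56*, chr5:9540611-9540860 on the plus strand for *NOP58-1*, chr5:21293897-21294146 on the plus strand for *FIB1* and chr3:6407947-6408196 on the minus strand for *NUC2*. *FIB2*, *APUM23* and *APUM24* also hold neither motif in these 250 bases, so *NUC2* is 1 of 4 such genes. *NOP56* held 3 site II elements and 1 telo box upstream of its start, and *NOP58-1* and *FIB1* each held 2 site II elements and 1 telo box. A match of letters is a description and not a binding site. The map of motif matches shows that each of the 8 genes has a telo box within 50 bases of its start, and that the site II elements lie upstream of the start in 6 of 7 genes, the exception being *APUM23*.

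**Figure D1:**
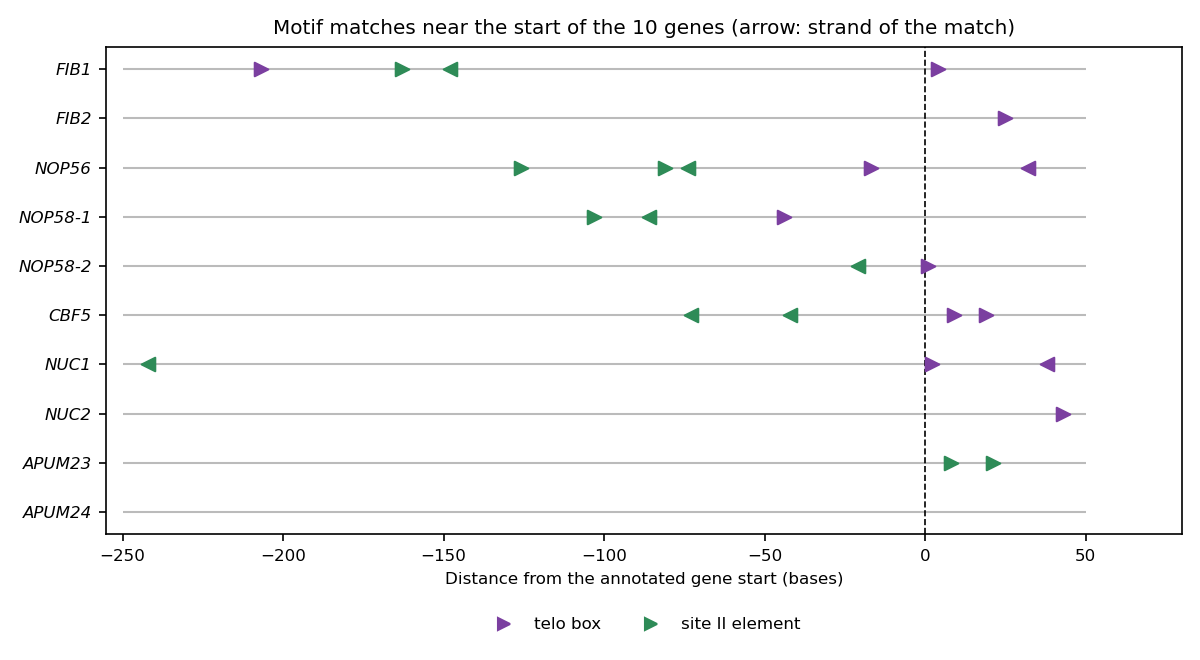
Positions of telo boxes and site II elements in the 10 genes, with the distance from the annotated gene start in bases on the horizontal axis and 1 line per gene. Arrows point right where the match is on the strand of the gene. Telo boxes lie within 50 bases of the start in 8 of 10 genes, and *APUM24* has no match.

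In WT the 10 genes differed widely in level per length of transcript (FPKM, fragments scaled by library size and gene length). *NUC1* had the highest mean, at 166.8 ± 22.2 FPKM (SD, n = 3), followed by *FIB1* at 112.1 and *NOP56* at 71.4 FPKM. *CBF5* (43.5 FPKM) and *FIB2* (40.1 FPKM) were next, then *NOP58-2* (32.2 FPKM), *NOP58-1* (25.7 FPKM), *APUM24* (11.6 FPKM) and *APUM23* (8.00 FPKM). *NUC2* was lowest, at 0.904 ± 0.272 FPKM. Of the neighbours in this order, *CBF5* and *FIB2* overlapped between their WT libraries, as did *NOP58-2* and *NOP58-1*, and the others did not. The order of the means was the same in *epn* and *octuple*. In *quintuple* *FIB2*, at 12.7 ± 3.47 FPKM, ranked 7 below both *NOP58* genes, *APUM23* (8.52 FPKM) was above *APUM24* (6.99 FPKM), and *NUC2* was still lowest at 2.53 ± 1.02 FPKM. In CPM (counts scaled to library size, without gene length), the lowest WT library was replicate 3 for 9 of the 10 genes and the highest was replicate 2 for 9, and in *epn* replicate 3 was also lowest for 9, *NUC2* being the exception for the lowest library in both.

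In *quintuple*-vs-WT, 8 of the 10 transcripts were lower, *NUC2* was higher and *APUM23* did not pass the test. A gene passed at an adjusted p below 0.05 in the quasi-likelihood test of edgeR, adjusted by Benjamini-Hochberg over 19691 genes. In this comparison 27.7% of all genes were lower and 29.3% were higher, so most genes passed and a single call among the 10 says little. The median log2 fold change was -0.98 for the 10 genes and 0.00 for all genes tested. The WT and *quintuple* libraries did not overlap for the 8 lower genes and for *NUC2*, against 33.5% of all genes without overlap and lower and 34.6% without overlap and higher. With an added 2-fold threshold, *FIB2*, *NOP58-2*, *CBF5* and *APUM24* were lower, as were 19.5% of all genes. *NUC2* was higher by this threshold, as were another 19.5% of all genes. In bulk tissue, fewer cells of a type and less RNA per cell cannot be told apart.

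Dividing-cell transcripts were also lower in *quintuple*, and their values in *octuple* are given beside these genes without a test between the lists. In *octuple*-vs-WT 0 of 17 such markers passed the edgeR test, and 8 had an unadjusted p below 0.05. This was so for 14.7% of all genes and 0 of the 10 genes. The median log2 fold change was -0.37 for the markers and -0.12 for the 10 genes. Of 17 markers of dividing cells and shoot meristem, 16 were lower in *quintuple*-vs-WT, where 27.7% of all genes were lower, and their summed level was 304 to 352 CPM in WT, 310 to 379 in *epn*, 96.7 to 152 in *quintuple* and 243 to 267 in *octuple*. Of the 8 senescence markers, the 7 that were tested were all higher in *quintuple*, where 29.3% of all genes were higher. The list summed to 1124 to 1179 CPM in *quintuple* against 71.5 to 112 in WT. In *octuple* the sum was 134 to 287.5 CPM, and 0 of the 7 senescence markers passed the edgeR test against WT. Their part in the levels of the nucleolar factors was not tested.

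**Figure D2:**
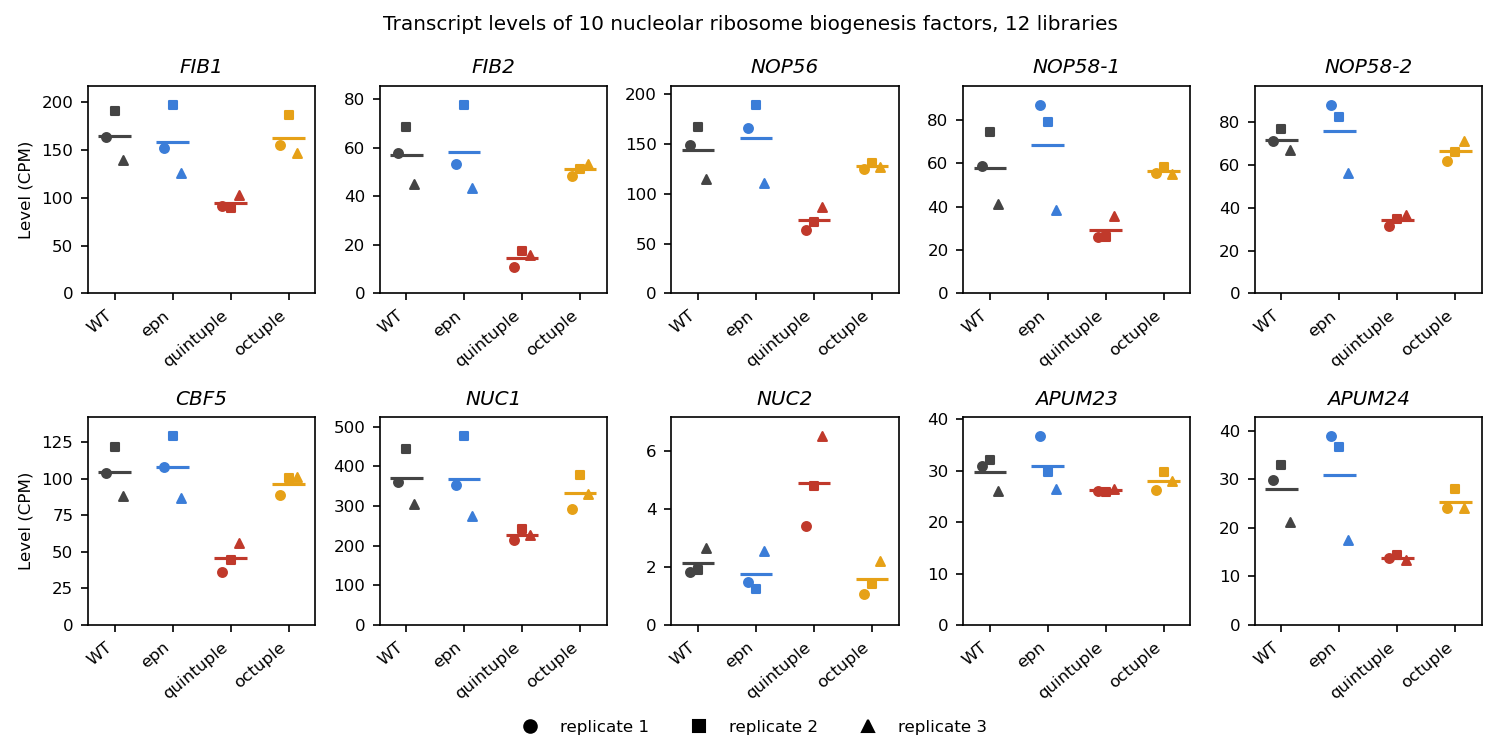
Level of each of the 10 genes in CPM, with each axis starting at 0, for 4 genotypes. Points are libraries, marked by replicate number, and bars are means of 3. In *quintuple* all 3 libraries lie below WT for 8 genes and above WT for *NUC2*, while *octuple* libraries overlap those of WT in all 10 genes.

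Among the box C/D proteins, both fibrillarin genes were lower. *FIB2* (AT4G25630, chr4:13074090-13076432, plus strand, 7 exons) was at 57.9, 68.5 and 45.0 CPM in WT and at 11.0, 17.5 and 15.8 CPM in *quintuple*. Every *quintuple* library was therefore far below every WT library. The log2 fold change of *FIB2* was -1.95 ± 0.24 (SE), that is 25.9% of the WT level (edgeR adjusted p = 0.00101), and it was the lowest of the 10. *FIB1* (AT5G52470, chr5:21294147-21296819, plus strand, 7 exons) was at 163, 190 and 139 CPM in WT and at 91.6, 89.6 and 103 CPM in *quintuple*. The *quintuple* libraries of *FIB1* were also all below WT, by a smaller margin, with a log2 fold change of -0.80 ± 0.16 (edgeR adjusted p = 0.00610). Both genes contain a gene for a small nucleolar RNA on the same strand, which shares no exon base with them.

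The scaffold proteins of the same particle fell to about the same extent as each other. *NOP56* (AT1G56110, chr1:20984273-20986952, minus strand, 8 exons) was at 149, 168 and 115 CPM in WT and 63.8, 71.7 and 86.6 CPM in *quintuple*, a log2 fold change of -0.96 ± 0.19 (edgeR adjusted p = 0.00641). *NOP58-2* (AT3G05060, chr3:1412867-1416056, minus strand, 9 exons) was at 71.1, 77.0 and 67.2 CPM in WT and 31.6, 34.8 and 36.6 CPM in *quintuple*. The log2 fold change of *NOP58-2*, -1.06 ± 0.12, had the smallest SE of the 8 lower genes and the smallest adjusted p of the 10 (edgeR, 0.000811). *NOP58-1* (AT5G27120, chr5:9540861-9544065, plus strand, 9 exons) was at 58.5, 74.3 and 41.0 CPM in WT and 26.0, 26.1 and 35.5 CPM in *quintuple*, and the groups were close but did not overlap. Its log2 fold change was -0.99 ± 0.25 (edgeR adjusted p = 0.0153), and the call was lost with an adjusted p of 0.0560 without *quintuple* replicate 1 and 0.0563 without *quintuple* replicate 2.

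*CBF5* (AT3G57150, chr3:21153815-21156075, minus strand, 1 exon), the catalytic protein of box H/ACA particles, was at 104, 122 and 87.8 CPM in WT. In *quintuple* it was at 36.0, 44.5 and 56.0 CPM, so that every library was below WT. The log2 fold change was -1.20 ± 0.21, or 43.5% of WT (edgeR adjusted p = 0.00370).

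The 2 nucleolins moved in opposite directions. *NUC1* (AT1G48920, chr1:18098081-18101732, plus strand, 15 exons), the main nucleolin of *Arabidopsis*, was at 362, 444 and 305 CPM in WT and 215, 242 and 227 CPM in *quintuple*, and the groups did not overlap. Its log2 fold change was -0.70 ± 0.19 (edgeR adjusted p = 0.0207). The call of *NUC1* was lost in 4 of the 6 fits that left out a library, with adjusted p of 0.0536 without WT replicate 1, 0.0651 without WT replicate 2, 0.0681 without *quintuple* replicate 1 and 0.0515 without *quintuple* replicate 2.

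*NUC2* (AT3G18610, chr3:6404053-6407946, minus strand, 18 exons), the copy that is scarce in wild-type plants, was at 1.82, 1.88 and 2.67 CPM in WT, from 70 to 113 counts. It was at 3.42, 4.79 and 6.52 CPM in *quintuple*, from 140 to 337 counts, above WT in every library. The log2 fold change was 1.21 ± 0.32, a rise to 2.31 times the WT level (edgeR adjusted p = 0.0176). This call was lost without WT replicate 1 (adjusted p = 0.0627) or WT replicate 2 (adjusted p = 0.0634). No 50-base exon sequence of *NUC2* is shared with another gene.

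The Pumilio genes also differed from each other. *APUM24* (AT3G16810, chr3:5723222-5727664, minus strand, 17 exons), which is known to act in the removal of a spacer from the precursor of large-subunit rRNA, was at 29.8, 32.9 and 21.2 CPM in WT and 13.9, 14.4 and 13.4 CPM in *quintuple*. It fell in every library, with a log2 fold change of -1.01 ± 0.19 (edgeR adjusted p = 0.00439). *APUM23* (AT1G72320, chr1:27228059-27233167, minus strand, 11 exons), known for its role in leaf polarity, was at 31.0, 32.0 and 26.1 CPM in WT and 26.0, 26.0 and 26.5 CPM in *quintuple*. The ranges of *APUM23* overlapped, and its log2 fold change of -0.19, with a 95% interval from -0.48 to 0.11, did not pass (edgeR adjusted p = 0.242). With library size as the only scaling it was 0.09.

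In *octuple*, labelled with mutations in the same 5 *CBP60* genes as *quintuple*, none of the 10 genes passed against WT or against *epn*. In *octuple*-vs-WT the edgeR test called 1.99% of all genes higher and 0.229% lower, and 0 of the 10 genes had an unadjusted p below 0.05, against 14.7% of all genes. DESeq2 also called 0 of the 10, as did edgeR with a replicate block, in which 10% of all genes were higher and 5.44% lower. The log2 fold changes ran from -0.43 for *NUC2* to -0.01 for *FIB1*, and the median was -0.12 for the 10 genes and -0.01 for all genes. *FIB2* was at 48.6, 51.4 and 53.3 CPM in *octuple*, inside the range of WT. Its log2 fold change of -0.16 had a 95% interval from -0.55 to 0.23. *NUC2* was at 1.09, 1.41 and 2.22 CPM, overlapping WT from below, and its interval was the widest, from -1.28 to 0.41. *CBF5* was at 88.5, 100 and 101 CPM, with an interval from -0.45 to 0.23. For *NOP58-2* and *APUM23* the lower end of the interval was -0.35, and for *NUC1*, *FIB1*, *NOP56*, *NOP58-1* and *APUM24* the lower ends were from -0.58 to -0.40.

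In *octuple*-vs-*epn*, where 2.47% of all genes were higher and 0.177% lower, again 0 of the 10 genes passed with edgeR or DESeq2 and 0 had an unadjusted p below 0.05 (14.7% of all genes). The fit with the replicate block also called 0 of the 10, and 8.52% of all genes higher and 3.32% lower. The log2 fold change was below 0 for 9 of the 10 genes, from -0.29 for *APUM24* to 0.03 for *FIB1*, with a median of -0.18 against -0.03 for all genes. The spread of *epn* was wide: *NOP58-1* was at 86.8, 79.0 and 38.5 CPM in *epn* and at 55.6, 58.2 and 55.1 CPM in *octuple*. The *octuple* libraries thus lay between those of *epn*. In *epn*-vs-WT the edgeR test called 0% of 18992 genes, and 419, or 2.21%, had an unadjusted p below 0.05. DESeq2 called 11 higher and 34 lower, and edgeR with the replicate block called 54 higher and 137 lower. Neither called any of the 10 genes. In the edgeR test without the block, 0 of the 10 genes had an unadjusted p below 0.05. Their log2 fold changes ran from -0.27 for *NUC2* to 0.23 for *NOP58-1*.

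**Figure D3:**
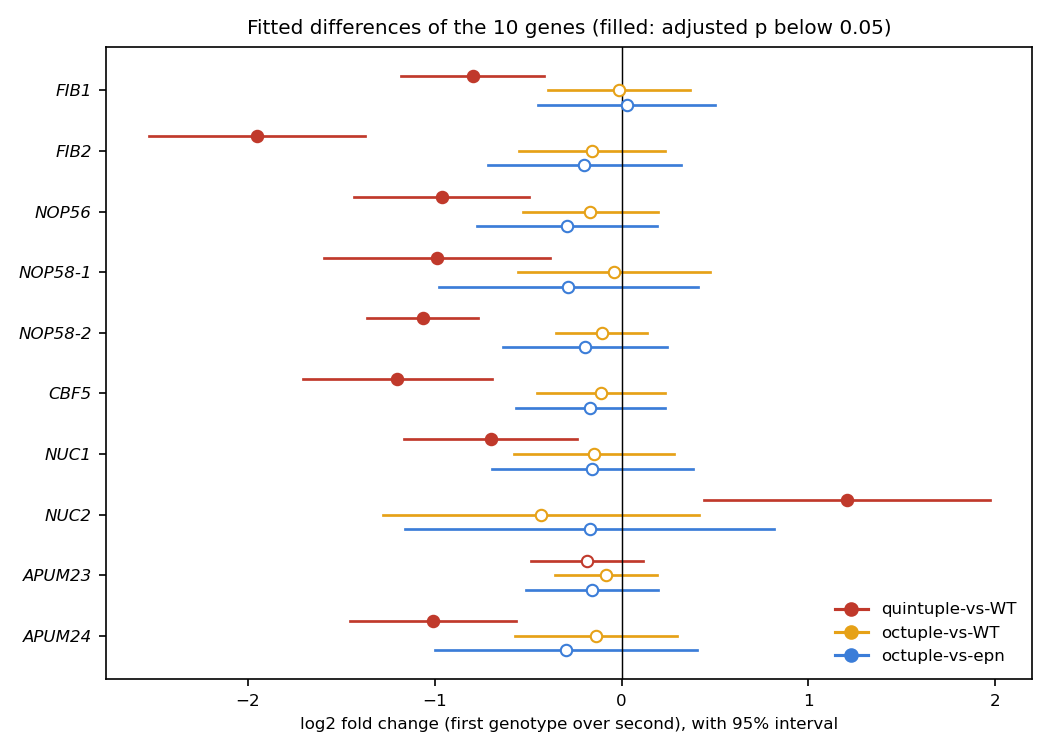
Fitted log2 fold change (horizontal axis) of the 10 genes with 95% intervals in *quintuple*-vs-WT and in the comparisons of *octuple* with WT and with *epn*. Filled points passed the edgeR test at an adjusted p below 0.05. In *quintuple*-vs-WT 8 points are filled on the left and *NUC2* on the right, and no point is filled in the comparisons of *octuple*.

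*octuple* and *quintuple* were compared directly, to ask how far the *epn* mutations alter these transcripts in plants without the CBP60b clade. The 8 genes that were low in *quintuple* were all higher in *octuple*, *NUC2* was lower and *APUM23* did not pass (edgeR adjusted p = 0.368), where 24.5% of all genes were higher and 24.1% lower. This comparison shares the *quintuple* libraries with *quintuple*-vs-WT, so the 2 sets of calls are not independent. *FIB2* was 3.53 times as high in *octuple* as in *quintuple* (log2 fold change 1.82 ± 0.19, edgeR adjusted p = 0.00129). *CBF5* was 2.17 times as high (1.12 ± 0.19, edgeR adjusted p = 0.00422), and the other 6 rose by a log2 fold change of 0.58 (*NUC1*) to 0.99 (*NOP58-2*). *NUC2* fell to 32.8% of its *quintuple* level (-1.61 ± 0.37, edgeR adjusted p = 0.0131), a call lost without *octuple* replicate 2 (adjusted p = 0.0513). The call of *NUC1* (edgeR adjusted p = 0.0307) was lost in 4 of 6 fits that left out a library, with adjusted p of 0.0954 without *quintuple* replicate 1, 0.0693 without *quintuple* replicate 2, 0.105 without *octuple* replicate 2 and 0.0632 without *octuple* replicate 3. With library size as the only scaling *NUC1* (adjusted p = 0.238) and *NOP56* (0.0683) did not pass, nor did they with limma on FPKM (0.206 and 0.0533). The libraries of *octuple* and *quintuple* did not overlap for these 8 genes or for *NUC2*, against 30.7% of all genes without overlap and higher and 32.2% without overlap and lower.

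Whether the effect of losing the CBP60b clade depended on the *epn* background was tested as the difference between *octuple*-vs-*epn* and *quintuple*-vs-WT over 12 libraries. With edgeR, the log2 fold change was significantly higher in the *epn* background for 4 of the 10 genes, *FIB2*, *CBF5*, *NOP58-2* and *FIB1*, where 17.6% of all genes passed in this direction and 14.1% in the other. The difference of log2 fold changes was 1.76 ± 0.34 for *FIB2*, 1.04 ± 0.28 for *CBF5*, 0.88 ± 0.22 for *NOP58-2* and 0.83 ± 0.26 for *FIB1*. The call of *FIB1* was lost without any 1 of WT replicates 1 and 2, *epn* replicates 1 and 3, *quintuple* replicates 1 and 2 and *octuple* replicate 2, with adjusted p from 0.0547 to 0.0771. With library size as the only scaling *CBF5* (adjusted p = 0.0686), *NOP58-2* (0.0702) and *FIB1* (0.0863) did not pass, and with limma on FPKM *NOP58-2* (0.0563) and *FIB1* (0.0683) did not. For *NUC2* it was -1.36 ± 0.53, which did not pass (edgeR adjusted p = 0.0738), and with the replicate number as a block it was -1.34 with an adjusted p of 0.00628. For the other 5 genes the difference ran from 0.04 (*APUM23*) to 0.72 (*APUM24*), with edgeR adjusted p from 0.101 to 0.901.

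The share of each transcript within its pair of gene copies was compared next, since a ratio within a library does not depend on the scaling between libraries. The pairs were chosen after the levels had been seen. *NUC2* made up 0.463%, 0.392% and 0.807% of the summed nucleolin FPKM in WT and 1.46%, 1.80% and 2.59% in *quintuple*. Every *quintuple* library was above WT. In *octuple* the share was 0.342%, 0.346% and 0.621%, within or below the range of WT. The log2 ratio of *NUC2* to *NUC1* was 1.87 higher in *quintuple* than in WT, between 1.63 and 2.17 when single libraries were left out. An exact two-sided permutation test gave p = 0.1, the smallest that 3 libraries against 3 allow, and 0.45 after adjustment over 45 comparisons of 9 pairs.

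*FIB2* made up 26.8%, 27.0% and 25.0% of the summed fibrillarin FPKM in WT, and 11.0%, 16.8% and 13.7% in *quintuple*. The share was lower in every *quintuple* library. It was 24.4%, 22.2% and 27.3% in *octuple*, overlapping WT. The log2 ratio of *FIB2* to *FIB1* differed by -1.17 between *quintuple* and WT, from -1.35 to -0.99 when single libraries were left out (exact permutation p = 0.1, adjusted 0.45). For the *NOP58* copies no difference was detected: *NOP58-1* was at a mean of 44.0% of their sum in WT and 45.6% in *quintuple* (difference in log2 ratio 0.10, from -0.08 to 0.25 when single libraries were left out, exact permutation p = 0.7).

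Other factors with an annotated second copy were measured in the same way. *GAR1-b*, a copy of the H/ACA protein GAR1, rose from a mean of 0.469 CPM in WT to 1.81 CPM in *quintuple*, while *GAR1-a* fell from 62.3 to 24.4 CPM. The share of *GAR1-b* in their summed FPKM was 0.914% in WT and 8.69% in *quintuple*. *GAR1-b* shares 166 exon bases (22.9%) with *GDH1* on the opposite strand, and how strand was counted is not given in the sources used here, so its low counts (10 to 29 in WT and 72 to 102 in *quintuple*) are uncertain. *GDH1* itself was at 29.9 CPM in WT and 32.4 CPM in *quintuple* (edgeR adjusted p = 0.831). *LSG1-1*, a GTPase gene of late 60S maturation with no such overlap, made up 17.0%, 21.0% and 33.4% of the *LSG1* sum in WT and 53.6%, 48.4% and 62.9% in *quintuple*. *REIL1*, a copy of a cytosolic 60S factor, made up 45.8%, 39.2% and 57.7% of the *REIL* sum in WT and 65.7%, 70.6% and 66.1% in *quintuple*. Its mean share was 47.6% in WT and 67.5% in *quintuple*. *REIL2* shares 173 exon bases (8.89%) with AT2G24490 on the same strand, and *REIL1* shares 26 (1.54%) with AT4G31410 on the opposite strand. For these 3 pairs the exact permutation test again gave its smallest value, p = 0.1. For *NOP56* and its copy, the *BRX1* copies and the *NOP2* copies the log2 ratio differed by 0.19 or less in size, with exact permutation p from 0.3 to 0.6. When single libraries were left out the difference ran from -0.02 to 0.40 for *NOP56*, from 0.12 to 0.26 for *BRX1* and from -0.22 to 0.03 for *NOP2*.

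**Figure D4:**
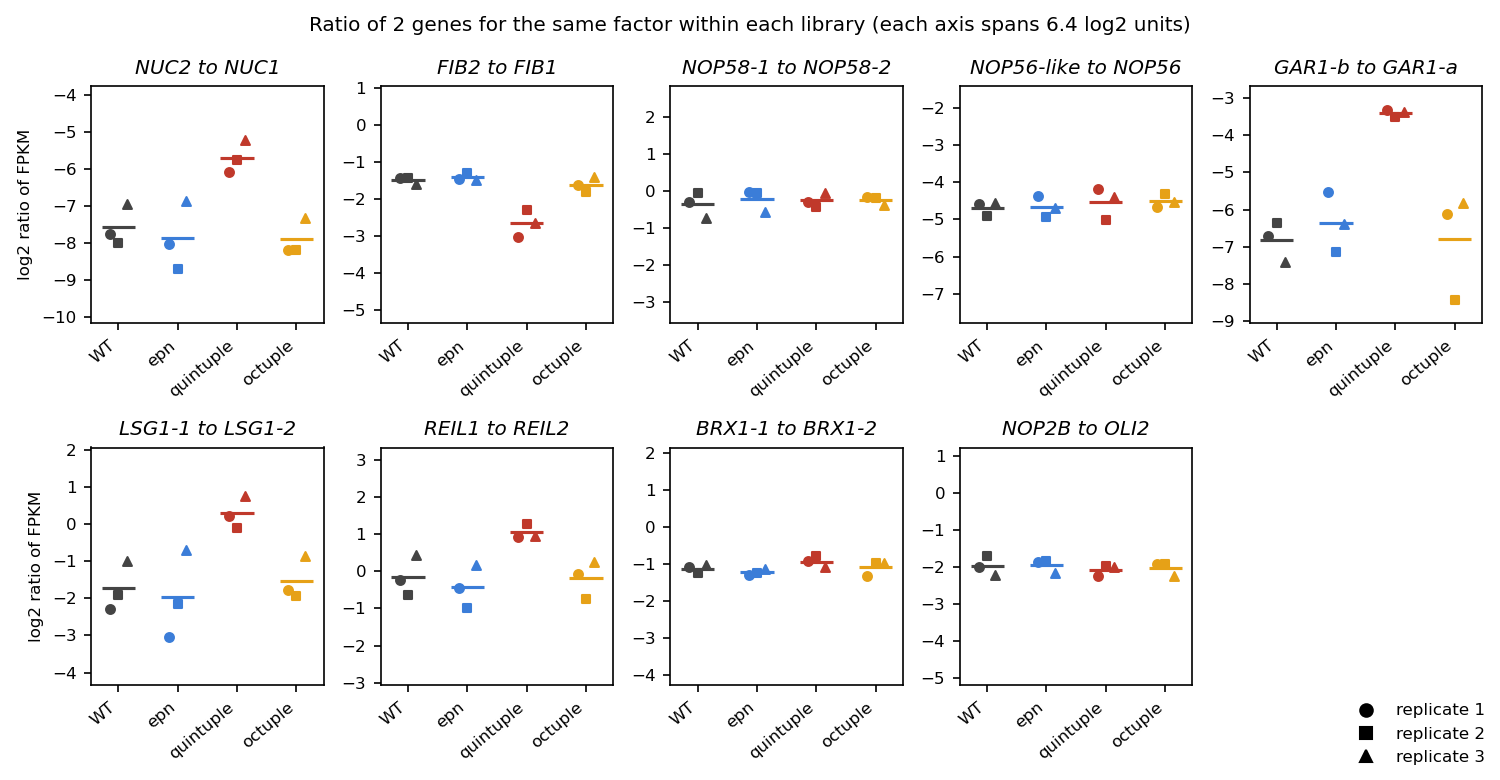
Log2 ratio of the FPKM of 2 gene copies in each library, for 9 pairs and 4 genotypes. Points are libraries, bars are means of 3 and every vertical axis has the same span. All *quintuple* libraries lie above the others for *NUC2* to *NUC1*, *GAR1-b* to *GAR1-a*, *LSG1-1* to *LSG1-2* and *REIL1* to *REIL2*, and below them for *FIB2* to *FIB1*.

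The wider pathway was described with 63 other ribosome biogenesis factors, grouped by role. In *quintuple*-vs-WT, 44 of them were lower and 4 were higher, 16 and 2 of these by at least 2-fold, and the median log2 fold change was -0.72 against 0.00 for all genes. Of all genes, 27.7% were lower and 29.3% higher, and 19.5% were lower and 19.5% higher by at least 2-fold, so the count lower by 2-fold was near the background. With library size as the only scaling, 24 of the 63 and 19.9% of all genes were lower. Box C/D and H/ACA partners were lower for 5 of 9 and higher for 1, factors of the small subunit processome for 14 of 17 and 0, and factors of 60S assembly for 17 of 22 and 2. In the group listed as nucleolar chromatin, 1 gene was higher, *NAC082*, which the RefSeq annotation names as a NAC domain protein and not as a chromatin protein. Lower transcripts were 5 of 6 in that group. They were 2 of 6 for RNA polymerase I and 1 of 3 for rRNA decay, with no gene higher in either group, and these shares were near the 27.7% of all genes.

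The largest falls were those of *HD2D* (log2 fold change -1.69 ± 0.29), *NHP2L1-b* (-1.64 ± 0.23) and *HD2A* (-1.55 ± 0.22), all with edgeR adjusted p of 0.00334 or less. *HD2A* and *HD2D* encode plant-specific nucleolar histone deacetylases, and *NHP2L1-b* a box C/D protein of the L7Ae family. *HD2A* shares 315 exon bases (22.2%) with AT3G44740 on the opposite strand, which was at 6.90 CPM in WT and 3.17 CPM in *quintuple* against 59.0 and 20.1 CPM for *HD2A*. The largest rises were those of *GAR1-b* (1.95 ± 0.45, adjusted p = 0.0109), *LSG1-1* (1.39 ± 0.33, 0.0119) and *REIL1* (0.69 ± 0.18, 0.0150), by the same edgeR test. Against WT and against *epn*, the edgeR test called 0 of the 63 in *octuple*, with 4 and 2 at an unadjusted p below 0.05, against 14.7% of all genes in either comparison. Against WT, DESeq2 called 1 lower (1.51% of all genes) and the fit with the replicate block called 4 lower (5.44% of all genes), which is about the background.

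**Figure D5:**
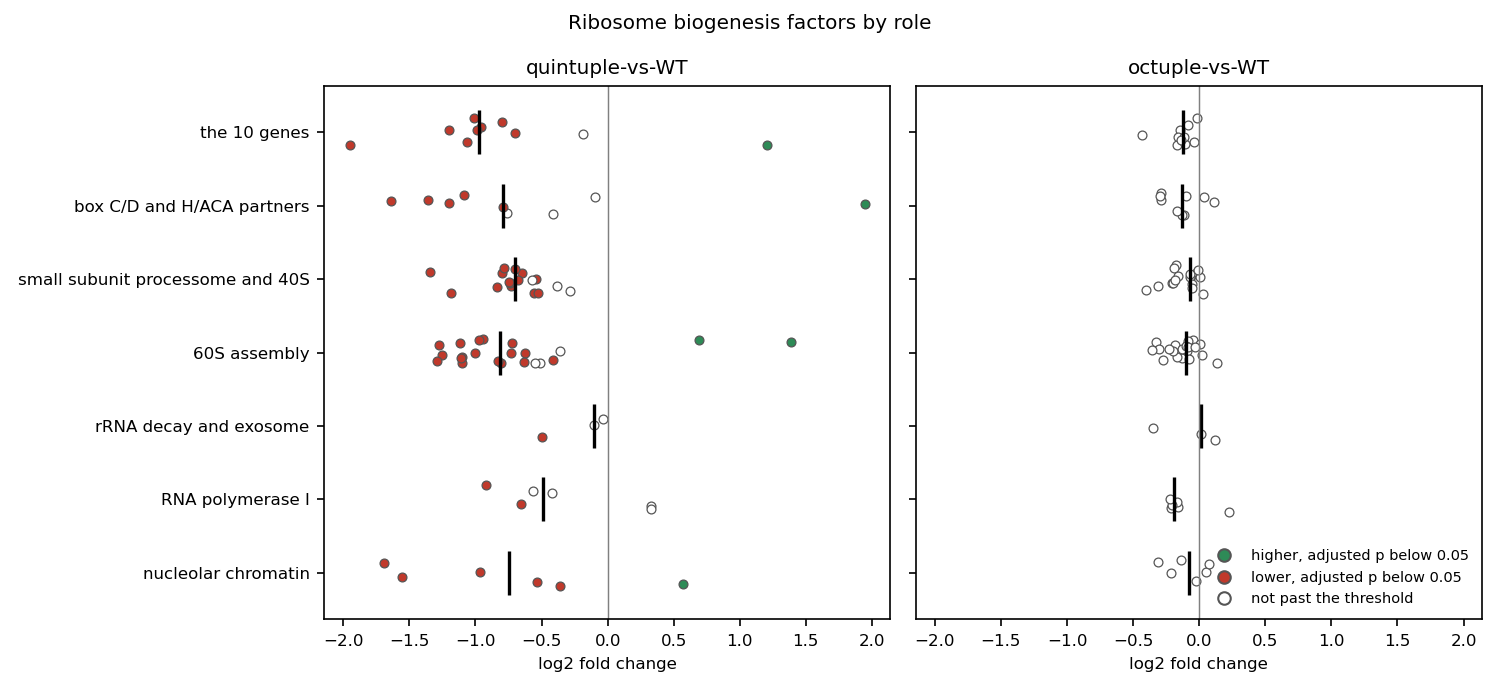
Log2 fold change (horizontal axis) of the 10 genes and of 63 other ribosome biogenesis factors by role in *quintuple*-vs-WT and *octuple*-vs-WT. Each point is a gene, colour marks genes past the edgeR threshold and bars are medians. Of the 63, 44 were lower and 4 higher in *quintuple*-vs-WT and none passed in *octuple*-vs-WT.

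Over the 12 libraries, 9 of the 10 genes varied together. The Pearson correlation of log2 CPM with the mean of the other 9 was 0.92 to 0.99 for 8 genes, 0.73 for *APUM23* and -0.82 for *NUC2*. These points share libraries and fall by genotype, so they are a description. Of 17851 other genes with a mean of at least 1 CPM, the most similar to the mean of the 10 were *OLI2* (r = 0.996), AT5G14520 (0.994), AT3G46210 (0.989), AT2G44860 (0.987) and AT4G04940 (0.986). *OLI2* encodes an rRNA methyltransferase homologue, AT5G14520 the pescadillo-like protein PES of 60S assembly, AT2G44860 a ribosomal protein L24e family protein and AT4G04940 a WD-40 repeat protein. *OLI2* was at a mean of 58.7 CPM in WT, 29.9 CPM in *quintuple* and 51.7 CPM in *octuple*. A correlation above 0.9 was seen for 42 of the 62 other factors at this level (67.7%) and for 3.08% of all genes compared.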

How the data were processed

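RNA was isolated by the authors with TRIzol reagent, and libraries from the VAHTS Universal V6 kit were read on a NovaSeq instrument. The submitters' processing notes name HISAT2, HTSeq and R 3.2.0, and the strand setting of the counting is not given in the sources used here. The authors deposited raw counts of fragments for each gene and FPKM values derived from those counts. All 23784 gene IDs matched RefSeq TAIR10.1, and the gene lengths implied by the FPKM equalled its merged exons for 20110 of 20110 genes with over 20 counts (tolerance 0.01 bases), so coordinates of that build are given.

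Tests used edgeR 4.0.16 in R 4.3.3 (TMM scaling, filterByExpr, quasi-likelihood test, Benjamini-Hochberg adjustment over all genes tested) on the 6 libraries of each comparison, and on 12 libraries for the background dependence. The script was tested on simulated data. The study's tool, DESeq2 1.42.0, other scalings, limma 3.58.1 on log2(FPKM + 1), a replicate block and leaving out libraries were alternatives. Deviations from genotype means correlated from 0.182 to 0.785 in 18 pairs of libraries with equal replicate numbers. In 36 pairs with different numbers the range was -0.590 to 0.267. Equal numbers were therefore taken to pair the samples, from the data and not from a statement of the authors. The main edgeR tests, the fits without single libraries and the permutation tests did not use this pairing. Only the fits with the replicate block did. The 10 genes, the other lists and the motifs were chosen with earlier results of these data known. Named beside the 10 were the 3 largest rises and falls among the 63 other factors, the 5 genes most correlated with the mean of the 10, and gene copies chosen after their values were seen. Ratios were tested with exact permutation in scipy, and plots were made with matplotlib. *NUC1* shares 90 exon bases with *GH9C1* and *NOP56* shares 78 with AT1G56105, both on the opposite strand and both at a mean below 0.02 CPM in WT, *quintuple* and *octuple*. *NOP58-1* shares 0.65% of its 50-base exon sequences with AT5G27140. The limit of 3 counts for a count of 0 covers counting error only. The 95% intervals of the log2 fold changes come from the edgeR fit and include the spread between replicates.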

Additional observations from a re-analysis of the deposited data

Results flagged for a closer look

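In 4 of the 10 genes the change on loss of the CBP60b clade differed between the WT and the *epn* background by the edgeR interaction test over 12 libraries. Of all genes, 17.6% passed in the same direction and 14.1% in the other. The difference, (*octuple* - *epn*) - (*quintuple* - WT), was 1.76 on the log2 scale for *FIB2* (adjusted p = 0.00356), 1.04 for *CBF5* (adjusted p = 0.0168), 0.88 for *NOP58-2* (adjusted p = 0.0139) and 0.83 for *FIB1* (adjusted p = 0.0318). With library size as the only scaling in edgeR, *CBF5* (adjusted p = 0.0686), *NOP58-2* (0.0702) and *FIB1* (0.0863) did not pass. All 3 *quintuple* libraries lay below all 3 WT libraries for each of these 4 genes, as for 33.5% of all genes. The *octuple* and *epn* libraries of these genes overlapped.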

How the results depend on the processing

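The calls of *FIB1*, *FIB2*, *NOP56*, *NOP58-2*, *CBF5* and *APUM24* in *quintuple*-vs-WT held in all 14 alternatives, and no call reversed in any comparison. With library size as the only scaling, the median of all genes moved to 0.27 and that of the 10 genes to -0.68, the split of all genes to 35.4% higher and 19.9% lower, and *NUC1* (adjusted p = 0.116) and *NOP58-1* (0.0570) no longer passed. limma on FPKM also lost these calls (0.0954 and 0.0515). With upper-quartile factors the split was 24.3% and 32.0%. Leaving out single libraries gave 6 to 8 of the 10 lower and 0 to 1 higher in *quintuple*-vs-WT, and 7 to 8 higher and 0 to 1 lower in *octuple*-vs-*quintuple*. In the background dependence, 4 genes were higher, with 1 under library size only, 2 under limma, 7 with only replicates 1 and 2 and 3 to 4 without single libraries. *NUC2* was lower there under DESeq2 (1 gene), the replicate block (1 gene) and limma (1 gene), and the count was 0 to 1 without single libraries, with a call without *octuple* replicate 3 (adjusted p = 0.0418). *FIB1* lost its call there in 7 of the 12 fits without 1 library. The causes were not tested. Of the 63 other factors, 24 were lower in *quintuple*-vs-WT and 14 higher in *octuple*-vs-*quintuple* under library size only and under limma, against 44 and 43, and in the background dependence 5 to 25 were higher, against 14. Among the 10 genes the replicate block changed no other call. Counts of *NUC2* (45 to 337) limit its precision.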

Other observations

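*NUC2* and the gene beside it in the annotation moved in opposite directions. AT3G18600, which encodes a P-loop NTPase and correlated at 0.982 with the mean of the 10 genes, was at a mean of 41.5 CPM in WT, 14.8 CPM in *quintuple* and 32.2 CPM in *octuple*. Its log2 fold change in *quintuple*-vs-WT was -1.49 ± 0.22 (edgeR adjusted p = 0.00184), against 1.21 for *NUC2*. This gene was named after its values were seen.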
